A study of Mus musculus with 120 samples.

Results

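Arrdc4, Txnip, Arrdc2, Arrdc3, Mlxip and Mlxipl, genes of a glucose-sensing circuit and its relatives, were followed in mouse soleus muscle and heart. They were taken by name and are 6 of the 53656 genes in the table of each tissue, and all 6 passed the filter on low counts in both tissues. Arrdc4 was picked because it was high in the soleus and heart of mice that lack ANT1, so its ANT1 values are given as a description and carry no test. The other 5 genes were tested in every comparison.

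Txnip (thioredoxin-interacting protein), Arrdc4, Arrdc3 and Arrdc2 belong to the alpha-arrestins, adaptor proteins that bring Nedd4-family ubiquitin ligases to membrane proteins. Txnip and Arrdc4 promote the removal of glucose transporters from the cell surface, and Txnip also binds thioredoxin. Mlxip (MondoA) and Mlxipl (ChREBP) are transcription factors that sense glucose 6-phosphate, pair with Mlx and bind carbohydrate response elements, for which Txnip and Arrdc4 are standard target genes. MondoA is best known from skeletal muscle and ChREBP from liver and fat. Arrdc3 is known for controlling beta-adrenergic receptors and energy expenditure, and Arrdc2 is known in muscle as a transcript induced by glucocorticoids.

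RNA was sequenced from soleus, a slow postural muscle, and from heart of 4 mutant strains that share the C57BL/6EiJ (Nnt+/+) background. ANT1 mice are Slc25a4-/- and lack the heart and muscle isoform of the translocator that exchanges ATP for ADP across the inner mitochondrial membrane. The other 3 strains each carry a missense change in mitochondrial DNA (mtDNA): ND5 mice carry ND5S204F (m.12352, complex I), ND6 mice carry ND6P25L (m.13997, complex I) and CO1 mice carry CO1V421A (m.6589, complex IV). The labels and the design text do not state what share of each mouse's mtDNA was mutant. From 16 weeks of age, mice either ran at 50% of maximal capacity for 45 min on every 2nd day over 8 weeks (called trained below) or were only handled (called resting). All were killed by cervical dislocation 6 days after the last session, had been kept under a 12:12 h light-dark cycle and ate the same PicoLab diet. Each strain, treatment and tissue had 6 libraries, 48 per tissue. The control strain is not analysed here, so ANT1 was compared with the mean of the 3 mtDNA strains, and every ANT1 difference is relative to other mitochondrial mutants.

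The promoters of the 2 standard target genes are shown with the letters that were searched for in them. Txnip holds a tandem pair of such letters, whereas Arrdc4 holds a lone CACGTG and no pair. Both are RefSeq sequence of GRCm38.p6, the build of mm10, 250 to 41 bases before the annotated start, 5′ to 3′ on the gene's strand. Arrdc4 is on the minus strand (chr7:68749279-68749488) and Txnip on the plus strand (chr3:96557707-96557916). Capitals in the Arrdc4 line mark the E-box CACGTG and the CCAAT box, which reads ATTGG on the other strand. Capitals in the Txnip line mark the tandem pair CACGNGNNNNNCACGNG and the CCAAT boxes.
Arrdc4: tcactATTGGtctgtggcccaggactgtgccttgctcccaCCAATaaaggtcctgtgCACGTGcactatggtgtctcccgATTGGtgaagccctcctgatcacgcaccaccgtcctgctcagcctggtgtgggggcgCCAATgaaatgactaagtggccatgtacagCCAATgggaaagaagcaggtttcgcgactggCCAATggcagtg
Txnip: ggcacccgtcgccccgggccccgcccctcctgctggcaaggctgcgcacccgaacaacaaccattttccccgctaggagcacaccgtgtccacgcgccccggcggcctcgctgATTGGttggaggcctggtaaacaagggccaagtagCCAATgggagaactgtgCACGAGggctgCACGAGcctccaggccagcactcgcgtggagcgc

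Both strands of the 250 bases before each start were searched in 32851 annotated promoters. The tandem pair was found in 15 of them (0.0457%), and Txnip was one, with the pair 85 bases from its start. Arrdc4 held no tandem pair but held 1 CACGTG, 193 bases from its start, a match that 6.02% of the promoters have. Arrdc4 also held 6 CCAAT boxes, as many as 0.0578% of the promoters hold at least, whereas Txnip held 2 (10.1%) and Arrdc2 held 3 (2.79%). Among the other 4 genes, CACGTG was found only before the first annotated start of Mlxipl, 98 bases from it, and the tandem pair before none. These are matches of letters in a window of fixed length.

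Library totals were 10.2 to 20.7 M expected counts in soleus and 19.7 to 26.5 M in heart (M, mega). Slc25a4, the gene deleted in ANT1 mice, was at 4.96 to 22.1 CPM, the count scaled to a fixed library size, in ANT1 soleus against 2170 to 4021 in the other strains, and at 1.89 to 6.13 against 471 to 3892 in heart, so all 24 ANT1 libraries matched their label. The heart marker Myh6 was at 2829 CPM or more in every heart library, and the fast-fibre marker Myh2 was at 0.2 CPM or less there. One heart library, of resting ND5 mouse B80, stood apart with the lowest Myh6, and its mouse is labelled trained in soleus and resting in heart. ANT1 soleus also differed in makeup from the other strains' soleus: 33.99 to 47.6% of its counts came from mtDNA genes against 12.9 to 24.8%, and in the resting comparison 5 of 6 fibroblast, 5 of 5 tendon, 3 of 5 macrophage and 5 of 6 slow fibre markers fell, while 5 of 5 red cell and 3 of 5 endothelium markers rose. In the trained comparison 5 of 6 fibroblast, 2 of 5 tendon, 5 of 5 macrophage and 1 of 6 slow fibre markers fell, and 4 of 5 red cell, 3 of 5 adipocyte and 0 of 5 endothelium markers rose. Falls and rises here are calls at an adjusted p below 0.05 (edgeR). Of all genes tested in soleus, 25.4% were called lower and 22.4% higher at rest. In training the shares were 22.4% and 21.1%, so such calls were common. Counts for the fast fibre and smooth muscle lists, and for adipocyte markers at rest, are not given here. The list of ventricular cardiomyocyte markers had 1 higher and 2 lower calls of 5 at rest and 3 and 1 in training, and its sum was at 7399 to 9515 CPM in resting ANT1 soleus against 3754 to 7956 in the other strains. In trained soleus that sum was at 7681 to 10193 CPM in ANT1 against 4366 to 6748, with no overlap. The list shares Myl2 with the slow fibre list, and which of its genes carried the sum is not given here. The summed fibroblast markers were at 265 to 623 CPM in resting and trained ANT1 soleus and at 325 to 3142 in the other strains. In heart, no marker gene passed the same test (edgeR, adjusted p below 0.05) between ANT1 and the mtDNA strains in either treatment, and the summed atrial cardiomyocyte markers ran from 57.03 to 37095 CPM over the 48 libraries. The part of cell makeup in the results below was not tested, and in bulk tissue fewer cells of a type and less RNA per cell cannot be told apart.

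CPM here is scaled by TMM, which sets most genes of ANT1 and other libraries level with each other. Without that scaling, the median gene of ANT1 had a log2 difference of -0.69 in resting and -0.57 in trained soleus, and of -0.27 and -0.26 in heart. The mtDNA share moved with this shift, and its part in it was not tested. A difference of ANT1 on the TMM scale is therefore a difference relative to most other genes. A p-value is two-sided and comes from edgeR's quasi-likelihood test, and an adjusted p is corrected by Benjamini and Hochberg's method over all tested genes. Genes with an adjusted p below 0.05 count as called.

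Arrdc4 was higher in every ANT1 library than in any library of the 3 mtDNA strains of the same tissue and treatment. In resting soleus it ranged from 10.05 to 16.39 CPM in ANT1 (median 14.93), against 5.63 to 7.70 in ND5 (median 5.88), 4.72 to 8.79 in ND6 (5.70) and 4.69 to 6.83 in CO1 (5.73). In trained soleus it ranged from 11.30 to 18.17 CPM in ANT1 (median 13.02), 3.75 to 7.96 in ND5 (6.46), 4.66 to 6.79 in ND6 (6.05) and 3.87 to 7.27 in CO1 (5.87). The 12 ANT1 soleus libraries thus lay above all 36 others, while the 3 mtDNA strains overlapped each other throughout. Arrdc4 was picked as high in ANT1, and how many of all genes separate so in either tissue is not given here.

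The same held in heart. Resting ANT1 hearts had 13.65 to 19.41 CPM of Arrdc4 (median 17.07), and the ranges were 6.34 to 9.62 in ND5 (median 7.28), 6.04 to 9.20 in ND6 (7.81) and 5.65 to 10.27 in CO1 (8.44). Trained ANT1 hearts had 13.23 to 19.61 CPM (median 15.03), against 6.41 to 9.52 in ND5 (7.97), 6.13 to 10.35 in ND6 (8.82) and 8.44 to 9.30 in CO1. Again no ANT1 library overlapped another strain.

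The fold against the mtDNA mean was 2.36 in resting soleus, 2.31 in trained soleus, 2.11 in resting heart and 1.92 in trained heart, or 1.24, 1.21, 1.08 and 0.94 on the log2 scale. Against single strains, which share the same ANT1 libraries, the log2 differences were 1.21 (ND5), 1.19 (ND6) and 1.31 (CO1) in resting soleus, and 1.14, 1.10 and 1.002 in resting heart. They were 1.16, 1.23 and 1.24 in trained soleus, and 1.02, 0.94 and 0.87 in trained heart. The separation depended in part on the scale: on deposited FPKM (fragments scaled to gene length and library size, without TMM), 4 of 6 resting and 5 of 6 trained ANT1 soleus libraries, and 6 of 6 resting and 3 of 6 trained ANT1 hearts, lay above all others. On library totals without TMM the log2 difference was 0.58 in resting and 0.65 in trained soleus, 1.27 and 1.21 above the shift of all genes. Arrdc4 is a low transcript, with 49 to 210 counts per soleus library and 134 to 528 per heart library.

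Txnip rose in resting ANT1 soleus, by less than Arrdc4. It ranged from 598 to 791 CPM in ANT1 (median 726), 263 to 724 in ND5 (median 319), 437 to 762 in ND6 (533) and 291 to 694 in CO1 (523). All 6 ANT1 libraries lay above the median of the 18 others, but only 2 lay above all of them. The log2 difference was 0.57 ± 0.17 (SE; 95% confidence interval 0.24 to 0.90; adjusted p = 0.00502, edgeR with Benjamini-Hochberg adjustment). Of the 5 genes tested in resting soleus, 2 were called, Txnip higher and Arrdc3 lower, where 47.7% of all 13935 tested genes were called, so a call here is common. Against single strains the Txnip difference was 0.90 for ND5 (adjusted p = 0.00059), 0.34 for ND6 (adjusted p = 0.228) and 0.47 for CO1 (adjusted p = 0.0814), each from edgeR and each sharing the ANT1 libraries. In these single-strain comparisons 49%, 30.8% and 35.2% of genes were called. Unlike Arrdc4, Txnip in soleus was not raised over library totals, where its log2 difference without TMM was -0.08 (0.61 above the shift of all genes).

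In trained soleus Txnip ranged from 524 to 817 CPM in ANT1 (median 706) and from 345 to 968 in the others (median 565), and the groups overlapped. The log2 difference of 0.31 ± 0.17 was not called (adjusted p = 0.145, edgeR), and 43.5% of all genes were. One trained ND5 library, of mouse B98, held the 968 CPM, and without it the difference was 0.41 and called (adjusted p = 0.0261, edgeR). Averaged over both treatments Txnip rose by 0.44 ± 0.12 (adjusted p = 0.00172, edgeR; 60.2% of all genes called). Such means, and the change of an ANT1 difference from rest to training, were added after values were seen, here and below. The Txnip difference of ANT1 did not change with treatment beyond error, since trained minus resting was -0.26 ± 0.25 (95% interval -0.75 to 0.22; adjusted p = 0.9999, edgeR). For trained minus resting 0% of genes were called in either tissue, 397 soleus and 238 heart genes having an unadjusted p under 0.05.

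In heart the Txnip ranges of the strains overlapped widely. Resting hearts had 495 to 828 CPM in ANT1 (median 751), 253 to 692 in ND5 (355), 371 to 840 in ND6 (664) and 351 to 825 in CO1 (676). Trained hearts had 386 to 1028 CPM in ANT1 (median 692), 238 to 1309 in ND5, 189 to 694 in ND6 (524) and 362 to 830 in CO1 (647). The log2 difference of ANT1 was 0.37 ± 0.24 in resting (adjusted p = 0.571) and 0.29 in trained heart (adjusted p = 0.539), by edgeR. None of the 5 genes was called in resting heart by edgeR, where 0.916% of all genes were, 0 of the 5 had an unadjusted p under 0.05, and DESeq2 called 0.

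Arrdc3 fell in ANT1 soleus in both treatments. At rest it ranged from 16.8 to 49.7 CPM in ANT1 (median 29.5), 30.1 to 61.3 in ND5, 35.8 to 79.9 in ND6 (65.8) and 38.7 to 78.3 in CO1 (54.1). All 6 ANT1 libraries lay below the median of the others and 3 lay below all 18. The log2 difference was -0.73 ± 0.25 (adjusted p = 0.0150, edgeR), and it was no longer called without ANT1 mouse A58 (-0.63, adjusted p = 0.0562, edgeR) or without ANT1 mouse A4 (-0.60, adjusted p = 0.0649, edgeR).

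In trained soleus Arrdc3 ranged from 14.4 to 58.6 CPM in ANT1 (median 22.3) and from 23.5 to 76.5 in the others (median 45.4). Here 5 of 6 ANT1 libraries lay below the others' median and 3 lay below all of them. The log2 difference was -0.80 ± 0.25 (adjusted p = 0.00997, edgeR), and Arrdc3 was the only 1 of the 5 genes called in trained soleus. Over both treatments, a mean added after values were seen, it was -0.77 (adjusted p = 0.000304, edgeR; 60.2% of all genes called). Against the single strains it was called against ND6 and CO1 at rest (-0.90 and -0.84) but not ND5 (-0.47, adjusted p = 0.193), and against ND5 and CO1 in training (-0.89 and -0.85) but not ND6 (-0.64, adjusted p = 0.0926), by edgeR. In trained soleus 39.1%, 33.8% and 30.9% of genes were called against ND5, ND6 and CO1. In heart Arrdc3 was not called, with 17.7 to 65.97 CPM in resting ANT1 against 19.2 to 56.4 in the others, and log2 differences of -0.08 at rest and -0.26 after training (adjusted p = 0.934 and 0.639, edgeR).

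Arrdc2 rose in trained ANT1 heart. It ranged there from 14.8 to 42.8 CPM (median 26.9), against 7.4 to 29.2 in ND5 (median 18.7), 10.8 to 18.5 in ND6 (14.3) and 7.1 to 14.6 in CO1 (10.2). All 6 ANT1 hearts lay above the others' median of 13.3, and 3 lay above all 18. The log2 difference was 0.95 ± 0.25 (adjusted p = 0.0185, edgeR), the only 1 of the 5 genes called in trained heart, where 4.78% of all genes were (3.45% higher and 1.32% lower). The call was lost without ANT1 mouse A76 (0.88, adjusted p = 0.0603, edgeR), without ANT1 mouse A17 (0.77, adjusted p = 0.0626, edgeR) and on library totals without TMM (0.75, adjusted p = 0.0787, edgeR), and also on FPKM. Against single strains, which share the ANT1 libraries, Arrdc2 was called against CO1 (1.36, adjusted p = 0.0220, edgeR) but not against ND5 (0.57, adjusted p = 0.346, edgeR) or ND6 (0.91, adjusted p = 0.0958, edgeR), in comparisons where 1.3%, 1.91% and 2.75% of all genes were called. Averaged over both treatments the heart difference was 0.47 and not called (adjusted p = 0.0742, edgeR), with 12.6% of all genes called.

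In resting heart the Arrdc2 ranges overlapped, with 11.3 to 26.6 CPM in ANT1 (median 15.7) and 7.2 to 45.7 in the others (median 13.8). The log2 difference there was -0.00 (adjusted p = 0.996, edgeR). The change of the ANT1 difference from rest to training was 0.95 ± 0.37 (95% interval 0.23 to 1.68; adjusted p = 0.9999, edgeR), so a difference between treatments did not pass the correction. In soleus Arrdc2 ranged from 30.4 to 71.2 CPM in resting ANT1 (median 41.8) against 11.8 to 55.6 (median 28.5), and from 19.03 to 89.3 in trained ANT1 (median 33.9) against 7.7 to 96.8 (28.2). The log2 differences of 0.62 and 0.49 were not called (adjusted p = 0.127 and 0.250, edgeR), and the mean over both treatments, 0.56, was (adjusted p = 0.0430, edgeR). Of all soleus genes, 47.7% were called at rest, 43.5% in training and 60.2% over both treatments, so a call here is common. Without ND5 mouse B98, which held the 96.8 CPM, the trained difference was 0.74 and called (adjusted p = 0.0440, edgeR), and without ANT1 mouse A76 it was 0.14 (adjusted p = 0.784, edgeR). Arrdc2 lies on chromosome 8 at 70835129 to 70839720, and the deleted Slc25a4 lies on the same chromosome at 46206797 to 46211284, 24.6 Mb away.

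**Figure D1:**
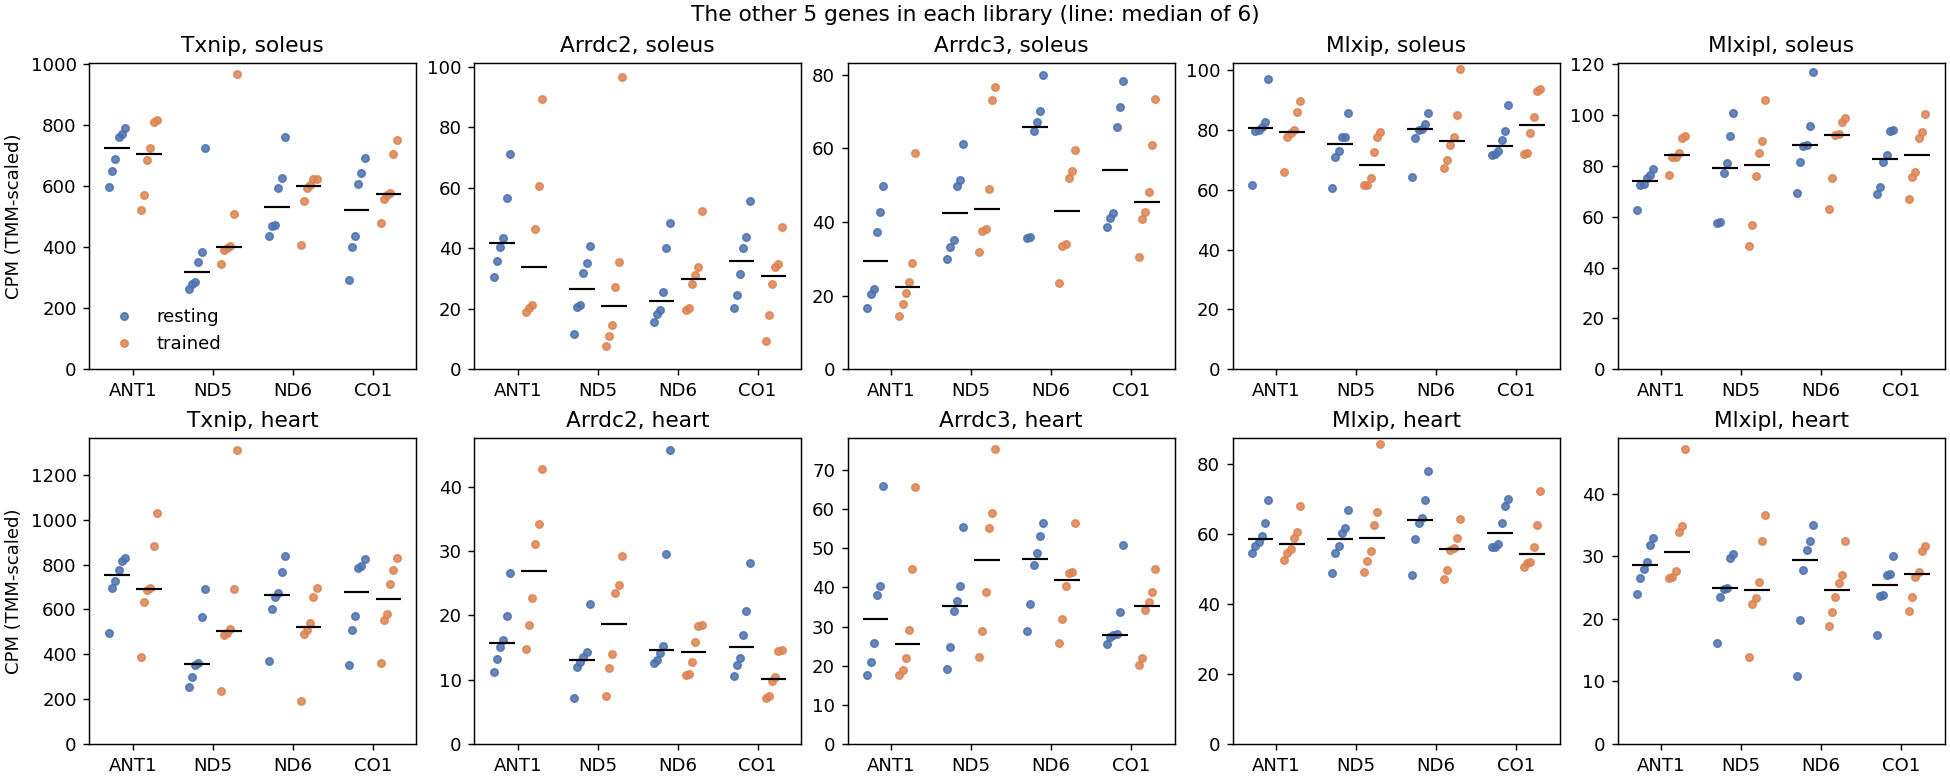
Txnip, Arrdc3, Arrdc2, Mlxip and Mlxipl in CPM (TMM scaled) in each library by tissue, strain and treatment; points are libraries and bars are medians of 6. In soleus, ANT1 libraries are high for Txnip (598 to 791 CPM at rest) and low for Arrdc3 (16.8 to 49.7 CPM), while Mlxip and Mlxipl overlap between strains.

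Neither of the 2 glucose sensors was called in ANT1 on the TMM scale, in either tissue or treatment. Mlxip was at 61.5 to 97.0 CPM in resting ANT1 soleus (median 80.5) and 60.6 to 88.1 in the others, a log2 difference of 0.07 (95% interval -0.08 to 0.23; adjusted p = 0.468, edgeR). In trained soleus it was 65.7 to 89.5 against 61.4 to 100.3 CPM, a log2 difference of 0.05 (-0.10 to 0.21; adjusted p = 0.616, edgeR). The heart differences were -0.02 and 0.01 (adjusted p = 0.948 and 0.986, edgeR). On library totals without TMM the soleus differences were -0.57 and -0.48, or 0.12 and 0.08 above the shift of all genes.

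Mlxipl was at 62.6 to 78.6 CPM in resting ANT1 soleus (median 74.1) and 57.4 to 116.9 in the others. Its log2 difference was -0.19 (95% interval -0.42 to 0.04; adjusted p = 0.190, edgeR), and in trained soleus 0.05 (adjusted p = 0.769, edgeR). The other scalings gave a different picture at rest: on FPKM the 6 resting ANT1 libraries, at 20.94 to 28.89, lay below all 18 others, at 31.32 to 55.08. On log2(FPKM + 0.1) the median gene was at -0.62 there, and 12102 of 16606 genes were called. How many of all genes separate in this way is not given here. Without TMM the log2 difference of Mlxipl was -0.83 at rest, called by edgeR, or -0.15 relative to the shift of all genes, and -0.50 in training, also called, or 0.07 above that shift. Without TMM 11959 of 13935 genes were called at rest and 11278 in training. In trained heart ANT1 had 26.4 to 47.1 CPM of Mlxipl (median 30.7) and the others 13.9 to 36.5, a log2 difference of 0.34 that did not pass the correction (95% interval 0.03 to 0.66; adjusted p = 0.223, edgeR). In resting heart the ranges were 24.0 to 33.0 CPM in ANT1 and 10.8 to 34.9 in the others. Of the 12 ANT1 hearts of both treatments, 11 lay above the others' median. The CPM ranges overlapped in each of these comparisons.

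No difference between tissues in the ANT1 effect was called for any of the 5 genes by edgeR, in either treatment. None had an unadjusted p under 0.05, and DESeq2 called 0 as well. Soleus minus heart was -0.63 for Arrdc3, 0.66 for Arrdc2 and 0.23 for Txnip at rest, with the smallest adjusted p at 0.273 (edgeR), where 11.1% of all genes were called. After training it was -0.51, -0.43 and 0.05, and 9.26% of all genes were called. So the call of Arrdc3 in soleus and not in heart was not shown to be a difference between the tissues.

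**Figure D2:**
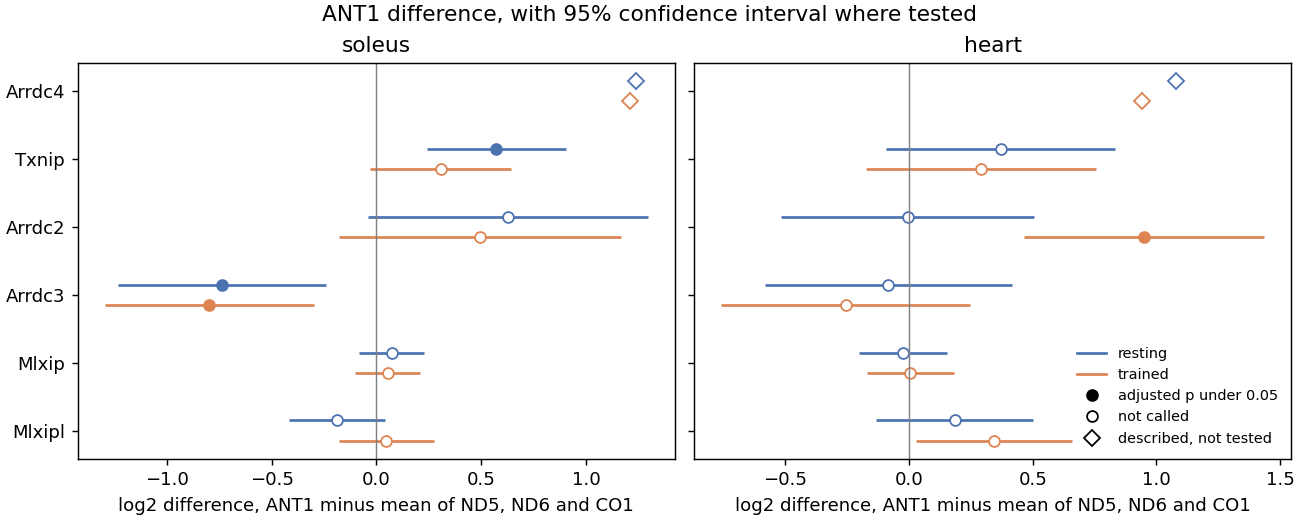
Log2 difference of ANT1 from the mean of the 3 mtDNA strains for the 6 genes, in each tissue and treatment; filled points were called, lines are 95% confidence intervals, and Arrdc4, which was chosen for this difference, has no interval. Arrdc4 stands at 0.94 to 1.24 in all 4 settings, and Arrdc3 at -0.73 and -0.80 in soleus.

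Levels between genes can be compared per length, on FPKM. In soleus the order was Txnip at 243 ± 68.2, Mlxipl at 38.4 ± 8.75, Arrdc2 at 21.3 ± 10.9, Mlxip at 12.8 ± 2.23, Arrdc3 at 12.5 ± 5.94 and Arrdc4 at 2.43 ± 0.73 (mean ± SD, n = 48). In heart Txnip was at 249.9 ± 81.1, Mlxipl at 12.7 ± 2.69, Arrdc2 at 12.6 ± 7.04, Arrdc3 at 10.4 ± 4.87, Mlxip at 9.95 ± 2.33 and Arrdc4 at 3.06 ± 1.03 (n = 48). Txnip was thus the highest and Arrdc4 the lowest of the 6 in both tissues. The means of Mlxip and Arrdc3 in soleus, of Mlxipl and Arrdc2 in heart, and of Arrdc3 and Mlxip in heart differed by less than the spread between libraries.

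Between tissues, 5 of the 6 genes differed, 4 higher and 1 lower in soleus, where 86.8% of all 16172 tested genes were called (40.5% higher and 46.3% lower). Mlxipl, the sensor known from liver and fat, had the largest difference, a log2 difference of soleus from heart of 1.83 ± 0.07. It was at 48.3 to 116.9 CPM in soleus (median 82.5) and 10.8 to 47.1 in heart (median 26.8). CPM was scaled within each tissue, so the CPM ranges of the tissues are not on the same scale. The log2 differences come from a joint fit of both tissues. On FPKM, Mlxipl ranged from 20.94 to 55.08 in soleus and from 6.16 to 21.32 in heart. Mlxip was at 60.6 to 100.3 CPM in soleus (median 77.7) and 47.1 to 85.7 in heart (58.1), a log2 difference of 0.59 ± 0.04. The log2 difference was 1.19 ± 0.14 for Arrdc2, 0.45 ± 0.11 for Arrdc3 (adjusted p = 0.00012, edgeR) and -0.16 ± 0.05 for Arrdc4 (adjusted p = 0.00344, edgeR). Txnip did not differ beyond error, at 0.09 (95% interval -0.09 to 0.27; adjusted p = 0.365, edgeR). On library totals the Arrdc3 difference was 0.19 and not called.

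The 3 mtDNA strains were compared in pairs at rest and in training, 36 tests per tissue over the 6 genes, and edgeR called none. An unadjusted p under 0.05 was found in 2 soleus and 4 heart tests, and DESeq2 called 1 in soleus and 0 in heart. The test with the smallest p among them was Txnip in resting soleus, which was lower in ND5 (median 319 CPM) than in ND6 (median 533 CPM), a log2 difference of -0.55 ± 0.21 (adjusted p = 0.0709, edgeR). DESeq2 called it (-0.56, adjusted p = 0.0497), as did edgeR without ND5 mouse B19, whose 724 CPM was the top of its group (-0.84, adjusted p = 0.0111). In heart, Txnip was also lower in resting ND5, by a log2 difference of -0.63 from ND6 (adjusted p = 0.748, edgeR) and -0.60 from CO1 (adjusted p = 0.147, edgeR), and neither passed the correction. The share of all genes called was 14.5% for ND5 against ND6 in resting soleus, 11.2% for ND5 against CO1 in resting heart, 0.566% for ND6 against CO1 in trained heart and 0% in each of the other 9 pairs.

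Arrdc4 was nearly level over the mtDNA strains. Its log2 differences between pairs ran from -0.02 to 0.12 in soleus and from -0.14 to -0.04 in heart, over both treatments. Medians of the 6 groups were 5.70 to 6.46 CPM in soleus and 7.28 to 8.82 CPM in heart.

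Training, measured 6 days after the last session, moved none of the 6 genes past the correction. Averaged over the 4 strains, the log2 difference of trained from resting was -0.02 for Arrdc4 in soleus (95% interval -0.18 to 0.13) and 0.05 in heart (-0.08 to 0.18). For Txnip it was 0.15 in soleus (interval -0.05 to 0.36) and 0.05 in heart (-0.24 to 0.34). By edgeR 0% of all genes were called in either tissue, with 536 soleus and 538 heart genes, and 0 of the 6, under an unadjusted p of 0.05, and DESeq2 called 0 of the 6.

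Within strains, the training tests with an unadjusted p under 0.05 were both of Arrdc2 in heart. The log2 difference was 0.68 in ANT1 (95% interval 0.06 to 1.31), where the median went from 15.7 to 26.9 CPM, and -0.68 in CO1 (95% interval -1.31 to -0.05), where it went from 15.1 to 10.2 CPM. The test of a difference in the training effect between strains gave an adjusted p of 0.869 for Arrdc2 in heart (edgeR), and 0% of all genes were called in it, 644 heart genes having an unadjusted p under 0.05. Txnip in ND5 mice had log2 differences of 0.40 in soleus (adjusted p = 0.379) and 0.57 in heart (adjusted p = 0.999), by edgeR. With a library left out they ran from 0.10 (without mouse B98) to 0.68 (without mouse B19) in soleus, and from 0.21 (without mouse B83) to 0.77 (without mouse B5) in heart.

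**Figure D3:**
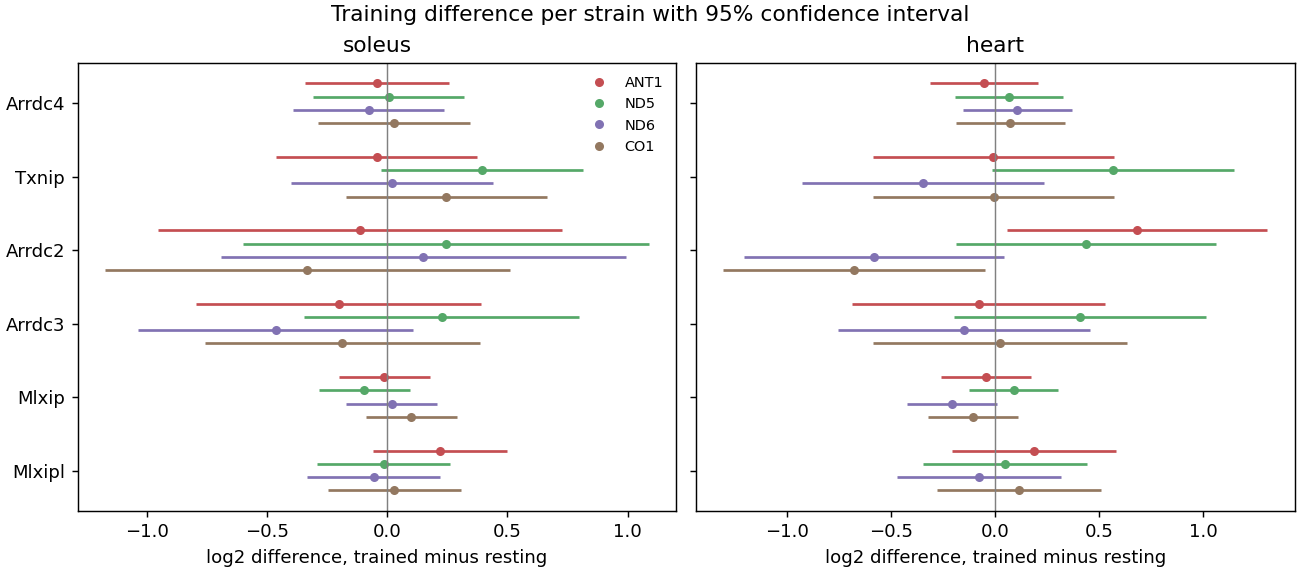
Log2 difference of trained from resting mice for the 6 genes in each strain, by tissue. Lines are 95% confidence intervals and no point was called. Arrdc2 in heart stands at 0.68 in ANT1 and -0.68 in CO1.

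Trained soleus libraries carry a label of exercise response, with 3 responders and 3 non-responders in each strain. None of the 6 genes was called in any strain or in the mean over strains, by edgeR or DESeq2, and 0% of all genes were (622 genes had an unadjusted p under 0.05 in the mean over strains). Tests with an unadjusted p under 0.05 were 3 in ND5 and 1 in ND6. Txnip in ND5 was at 345, 391 and 403 CPM in responders and at 397, 508 and 968 in non-responders, a log2 difference of -0.71 (adjusted p = 0.398, edgeR). Arrdc4 in ND5 was at 6.50, 7.59 and 7.96 CPM in responders and at 3.75, 5.08 and 6.43 in non-responders, a log2 difference of 0.54 (adjusted p = 0.520, edgeR), and these did not overlap. Groups of 3 can part by chance, and how many of all genes did so is not given here. In ND5, 1244 of 13843 genes (8.99%) had an unadjusted p under 0.05 (edgeR). Arrdc2 in ND5 had a log2 difference of -1.53 (adjusted p = 0.451, edgeR). The lowest Arrdc4 and the highest Txnip and Arrdc2 of that group came from the same mouse, B98. Without it the log2 difference was -0.24 for Txnip, 0.36 for Arrdc4 and -0.49 for Arrdc2. Over the strains, responders differed by -0.22 for Txnip (95% interval -0.46 to 0.02) and by 0.12 for Arrdc4.

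Arrdc4 and Txnip, the standard target genes of the sensors, varied together from mouse to mouse in heart, whereas their correlation in soleus was negative and did not pass the correction. Deviations of log2 CPM from the mean of the library's own group of 6 were correlated over the 48 libraries of a tissue, for 15 pairs of genes per tissue. In heart, Arrdc4 and Txnip had r = 0.57 and rho = 0.60 (permutation p = 0.00012, adjusted over 15 pairs 0.0009). The r was 0.53 without the 2 libraries farthest from the median Arrdc4 and 0.57 without the library of mouse B80. It was 0.67 in resting and 0.52 in trained libraries. With an atrial score removed, the mean of the atrial markers' scaled log2 CPM deviations, it was 0.54. In soleus the same pair had r = -0.39 and rho = -0.34 (permutation p = 0.0124, adjusted 0.0620), -0.34 without the 2 farthest libraries, -0.36 at rest and -0.43 in training. The difference of r between tissues was -0.958, past every one of 100000 permutations of the tissue labels within strain and treatment (p = 1e-05, the smallest they can give, adjusted over 15 pairs 0.00015). The permutation took all libraries as separate mice, although 19 mouse codes occur in both tissues, so the pairing was ignored. By strain, r in heart was 0.35 in ANT1 and 0.62 in the mtDNA strains, and in soleus -0.31 and -0.41.

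**Figure D4:**
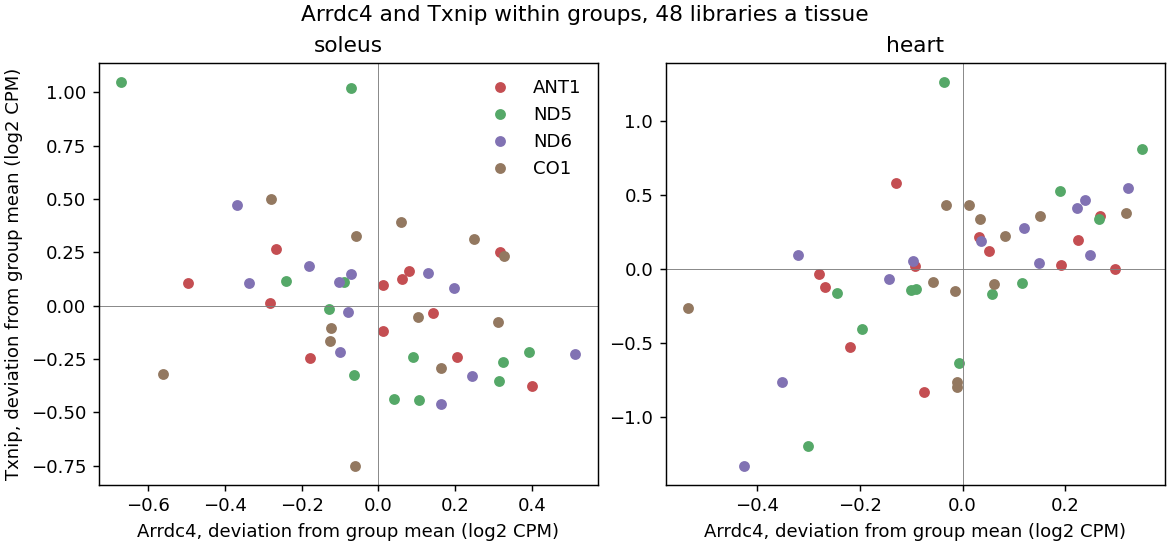
Deviation of log2 CPM from the group mean for Arrdc4 (horizontal axis) and Txnip (vertical axis), 1 point per library, soleus and heart apart, coloured by strain. The cloud rises in heart (r = 0.57) and slopes down in soleus (r = -0.39).

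In soleus the pair that passed by both measures was Arrdc2 and Arrdc3, with r = 0.60 and rho = 0.56 (permutation p = 3e-05, adjusted 0.00045), 0.56 without the 2 farthest libraries and 0.67 with a fast-fibre score removed. Txnip and Arrdc2 had r = 0.48 (permutation, adjusted p = 0.0202), but rho = 0.41 had an adjusted p of 0.066. In heart Arrdc2 and Mlxip had r = 0.63 and rho = 0.60 (permutation, adjusted p = 0.0009), and 0.55 with the atrial score removed. Arrdc3 and Mlxipl had r = -0.41 in heart (permutation, adjusted p = 0.0198) and -0.00 with the atrial score removed. Mlxip and Mlxipl had r = -0.45 in heart (permutation, adjusted p = 0.0384) and -0.27 with the atrial score removed. The difference between tissues also passed for Arrdc2 and Mlxip (-0.706, permutation, adjusted p = 0.00565) and for Mlxip and Mlxipl (0.69, permutation, adjusted p = 0.00465).

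For 18 mice with both tissues and one treatment label, the deviations in soleus and heart of the same mouse were correlated for each gene. Arrdc2 had r = 0.43 and rho = 0.47 (permutation, adjusted over 6 genes 0.211), Arrdc4 0.40, Mlxip 0.39, Mlxipl 0.36, Txnip 0.29 and Arrdc3 0.09. None passed the correction.

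The genes most like Arrdc4 and Txnip were ranked among 10018 genes by the lower of their 2 correlations, in soleus and in heart, each over 48 libraries. These are descriptions with no test, and libraries share depth, scaling and tissue makeup. On levels, which include the strain differences, Arrdc4 was most like Slc25a28, a mitochondrial iron carrier (r = 0.79 in soleus and 0.76 in heart), followed by Rnaseh2a, Tmem116, Ddx23 and Asna1. On deviations from the group mean, Meox2 (0.43 and 0.40), Ppm1f, Klf10, Trib2 and Il13ra1 led, with lower values. Klf10, a transcription factor, is also a standard target of the glucose sensors, and its r with Arrdc4 was 0.41 and 0.36.

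Txnip was on levels most like Ucp3 (r = 0.64 in soleus and 0.63 in heart), the uncoupling protein of skeletal muscle, followed by Eif3c, Epas1, Acot2 and Parp4. On deviations from the group mean it was most like Angptl4 (0.55 and 0.59), Ucp3 (0.66 and 0.55), Pdk4 (0.48 and 0.62), Snrk and Siah1a. Angptl4 inhibits lipoprotein lipase and Pdk4 holds pyruvate dehydrogenase inactive, and both are known as genes of the fasting response. For the other 4 genes the leading gene was chosen by the same ranking but after values were seen. It was Tsc22d3 for Arrdc2 (0.71 and 0.75), a glucocorticoid-induced gene, Per1 for Arrdc3 (0.78 and 0.72), a clock gene, Tor1aip1 for Mlxip (0.74 and 0.73) and Optn for Mlxipl (0.67 and 0.66).

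Genes around the circuit were read from 10 lists, with 104 of their 112 genes tested in soleus and 106 in heart. In soleus, 49 were called in resting ANT1, 25 of them higher, and 47 in trained ANT1, 25 of them higher. In heart 1 was called at rest and 4 in training. Of all genes, 47.7% and 43.5% were called in soleus (22.4% and 21.1% higher, 25.4% and 22.4% lower) and 0.916% and 4.78% in heart, so the lists as a whole stood near the background. On library totals without TMM, 17 of the 49 and 16 of the 47 soleus calls turned sign, all of them higher calls that became negative, and so did 1 of the 4 in trained heart.

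Of the glucose transporters and hexokinases, 3 rose and 3 fell of 8 tested in resting ANT1 soleus, with a list median of 0.05 where all genes had -0.04. Slc2a1, the widespread transporter GLUT1 that Txnip is known to remove from the surface, fell by 1.13 at rest and 1.54 in training on the log2 scale. It was at 5.61 to 8.82 CPM in resting ANT1 soleus and 9.57 to 23.4 in the others, with no overlap. Genes of a list are named by their small p, and how many of all genes separate so is not given here. Slc2a4, the insulin-responsive GLUT4, rose by 0.50 and 0.47, and Hk2, the muscle hexokinase, rose by 0.32 and 0.39, both turning negative on library totals.

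Uses of glucose 6-phosphate, the metabolite the sensors read, had 7 higher and 3 lower calls of 17 in resting ANT1 soleus (median 0.18) and 5 and 2 in training. Pfkfb2, which makes the activator of phosphofructokinase, rose by 1.38 and 1.61. Gpi1 rose by 0.47 and 0.35 and Ugp2, of glycogen synthesis, by 0.56 and 0.50, both turning negative on library totals, while the phosphofructokinase subunit Pfkl fell by 0.64 and 0.68.

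Other targets known for Mlxipl or Mlxip had 4 higher and 3 lower calls of 11 at rest (median 0.18) and 5 and 2 in training (median 0.47). Acaca, the acetyl-CoA carboxylase that feeds fatty acid synthesis, rose by 1.06 and 1.27. Klf10 rose by 1.30 and 0.92 and stood at 20.8 to 23.9 CPM in resting ANT1 soleus, above the 5.27 to 19.05 of all others. For Klf10 too, how many of all genes separate so is not given here. Acly rose by 0.46 and 0.63, the resting call turning negative on library totals, and Fasn, fatty acid synthase, fell by 1.12 at rest. The known targets thus did not move one way.

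The Mlx and Max network, the partners and rivals of the sensors, had 0 higher and 2 lower calls of 8 at rest (median -0.16) and 0 and 3 in training. Myc fell by 1.14 and 1.39, and Mxd1 by 0.39 and 0.80. The ubiquitin ligases of the Nedd4 family, through which alpha-arrestins work, had 1 higher and 3 lower calls of 7 at rest (median -0.17) and 1 and 1 in training: Smurf2 fell by 0.28 at rest, Nedd4 and Itch fell by 0.25 and 0.20, and Wwp1 rose by 0.34, turning negative on library totals. Of the other alpha-arrestins, Arrdc1 fell by 0.47 at rest (adjusted p = 0.0393, edgeR) and 0.79 in training (adjusted p = 0.00104, edgeR), and the other one tested was not called.

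The thioredoxin system, to which Txnip binds, had 6 higher and 0 lower calls of 11 at rest (median 0.32) and 7 and 1 in training (median 0.41). Prdx5 rose by 1.19 and 1.06, from 122 to 164 CPM in the resting mtDNA strains to 269 to 363 CPM in ANT1 (median 313), and Prdx2 by 0.81 and 0.83. Prdx3 and Txn2, both mitochondrial, rose by 0.58 and 0.50 at rest. On library totals the higher calls of Prdx1, Prdx3, Txn2 and Txnrd2 turned negative in both treatments, 4 of the 6 at rest, and that of Prdx4 did so in training, making 5 of 7, while Prdx5 and Prdx2 stayed positive. Prdx2 rose in heart too, by 0.37 at rest (adjusted p = 0.0160, edgeR) and 0.39 in training (adjusted p = 0.00569, edgeR), the only 1 of the 106 called in resting heart.

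The AMP-activated kinase, which is known to phosphorylate Txnip, had 2 higher and 4 lower calls of 8 at rest (median -0.19) and 1 and 3 in training. Its fast-muscle subunit Prkag3 fell by 1.60 and 1.65, while Prkag1 rose by 0.37 and 0.28 and turned negative on library totals. The glucocorticoid, FoxO and fasting response had 1 higher and 4 lower calls of 16 at rest (median -0.20) and 0 and 5 in training (median -0.35): Tsc22d3 fell by 0.62 and 0.68 and Sgk1 by 0.51 and 0.81. Of the clock genes, 1 rose and 1 fell of 16 at rest and 2 rose and 2 fell in training, with Ciart up by 2.07 and 2.14.

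Calls in trained heart also included Irs2, an insulin receptor substrate, which rose by 1.35 (adjusted p = 0.0466, edgeR), and Mxd4, which rose by 0.24 (adjusted p = 0.0400, edgeR) and turned negative on library totals.

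Reads were not stated to keep their strand. Txnip (chr3:96557957-96561883, plus strand) overlaps the antisense gene Gm15441, Arrdc3 (chr13:80883384-80896042, plus) overlaps 1700023H06Rik, Mlxip (chr5:123394798-123457932, plus) overlaps 4 predicted genes and Mlxipl (chr5:135089890-135138382, plus) overlaps Gm43500. Reads of such partners cannot be told apart. For Arrdc4 (chr7:68736995-68749241, minus) and Arrdc2 (minus strand) no overlapping gene was found in the annotation.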

How the data were processed

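The authors deposited, per tissue, a table of expected counts per gene and a table of FPKM. Per the submitters' processing notes, the tools were RSEM 1.2.28 and STAR 2.5.2b on mm10, with settings not stated. Per the labels' protocols, mRNA was enriched with oligo(dT) beads and sequenced in pairs on NEBNext Ultra II libraries. Of 120 labelled samples, 96 libraries were tied to a sample by the mouse code in the column name, and 24 columns were not used.

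Expected counts were rounded. Genes passing filterByExpr by group (13935 in soleus, 15723 in heart, 13843 for responders, 16172 over both tissues) were scaled by TMM and tested with edgeR 4.0.16 in R 4.3.3 (quasi-likelihood F test), all libraries of a tissue in 1 fit, with Benjamini-Hochberg adjustment over all genes per comparison at 0.05. Log2 CPM used a prior count of 2. limma 3.58.1 and DESeq2 1.42.0 served alternatives, log2(FPKM + 0.1) among them. Correlations used 100000 permutations (Python 3.11.15, scipy 1.17.1). The test was tried on simulated counts first. The libraries of a tissue came from separate mice by their codes, and 19 codes occur in both tissues; a code names the same mouse.

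The genes and lists were chosen with earlier results of these data known. Named were the 6 genes, the 5 genes most like Arrdc4 and Txnip, and up to 4 called genes of a list with the smallest p. Promoters came from RefSeq, where all 6 genes matched by symbol. One gene of the lists is counted but not reported here by name.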

Additional observations from a re-analysis of the deposited data

Results flagged for a closer look

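Of 96 groups of 6 libraries (6 genes, 16 groups), 7 held a library far from the other 5, where chance gives about 1 in 20. ANT1 mouse A58 gave 3 of them, with Arrdc4 at 10.05 CPM in resting soleus (the other 5 at 14.34 to 16.39), Mlxipl at 62.56 CPM in resting soleus (72.48 to 78.57) and Txnip at 494.8 CPM in resting heart (694.4 to 828.4). Txnip was high in the soleus of trained ND5 mouse B98, a non-responder, at 968.5 CPM (344.9 to 507.8). It was low in 2 trained ND6 libraries, at 407.5 CPM in the soleus of mouse I75 (551.2 to 625.4) and at 189.2 CPM in the heart of mouse I4 (488.0 to 693.9). Mlxip was low at 64.38 CPM in the soleus of resting ND6 mouse I85 (77.15 to 85.58).

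The within-group correlation differed between soleus and heart by the permutation test for 3 of 15 gene pairs. The difference of r was -0.958 for Arrdc4 and Txnip, -0.706 for Arrdc2 and Mlxip, and 0.69 for Mlxip and Mlxipl.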

How the results depend on the processing

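Counts below are of called tests. The ANT1 comparisons count the 5 genes other than Arrdc4, while the pairs of mtDNA strains and the responders count all 6 genes. In resting soleus 2 became 1 against ND5, ND6 or CO1 alone, 3 without TMM, on FPKM, in resting libraries alone and averaged over both treatments, and 1 to 2 when a library was left out. On FPKM all 6 resting ANT1 soleus libraries lay below all 18 others for Arrdc3 and Mlxipl, and Txnip was not called. How many of all genes separate in this way is not given here. In trained soleus 1 became 3 on library totals without TMM, on log2(FPKM + 0.1), on log2(FPKM + 1), without a filter on FPKM and averaged over both treatments, became 0 against ND6 alone, and was 1 to 3 with a library left out. In trained heart 1 became 0 in those same 5 settings and against ND5 or ND6 alone, and was 0 to 1 with a library left out. The ANT1 effect in soleus minus that in heart had 0 calls and 3 without TMM. Pairs of mtDNA strains in soleus had 0 calls, 1 by DESeq2 and 0 to 1 with a library left out. Responders had 0 calls and 2 without a filter on low counts (Txnip and Arrdc2 in ND5). The settings without TMM lower the median gene in ANT1, and the cause of the changes was not tested. On library totals 11959 of all 13935 soleus genes were called at rest and 11278 in training. On log2(FPKM + 0.1) 12102 of 16606 were called at rest and 11121 in training, so a call in these settings was common.

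Changes of sign that involved a called value or Arrdc4 came without TMM or on FPKM. Txnip in resting ANT1 soleus was -0.077 without TMM. Mlxip was -0.57 without TMM and -0.43, -0.40 and -0.43 on log2(FPKM + 0.1), log2(FPKM + 1) and unfiltered FPKM at rest, and -0.48, -0.49, -0.45 and -0.49 in training. Mlxipl in training was -0.50, -0.39, -0.38 and -0.39. Arrdc4 in soleus minus heart was -0.21 at rest and -0.050 in training without TMM. With DESeq2's size factors in edgeR, no call changed among the 234 values. Correlations and the ANT1 differences of Arrdc4 were among them and were judged by the size of their shift, not by a test.

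With the mouse as a replicate block (limma), soleus against heart kept 5 calls, with Arrdc4 at -0.16 (adjusted p = 0.00505, limma) and Txnip not called at 0.12, and 0 of the 5 were called for the ANT1 effect by tissue. The block changed no call.

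Low counts limit Arrdc4, which had as few as 49 counts in a soleus library. With an atrial score as a covariate (78 values), or without the heart library of mouse B80 (93 values), no call in heart changed. The ANT1 differences of Arrdc4, and the correlations among the 93, were judged by the size of their shift, not by a test.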
